A study of Mus musculus with 24 samples.

Results

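The retina of A/J mice was compared with the retina of 4 other classical inbred strains. The 3 A/J libraries were set against the 12 libraries of 129S1/Svlmj, C57BL/6J, NOD/ShiLtJ and NZO/HlLtJ, so that 15 of the 24 libraries of the series entered the comparison. They were chosen by the strain in the sample labels, with 3 libraries per strain. The remaining 9 libraries, of the wild-derived strains CAST/EiJ, PWK/PhJ and WSB/EiJ, stayed out of the test and are given beside it as values. All mice are labelled wild type and were at postnatal day 28, and their sex is not given. The study sequenced total retinal RNA of the 8 strains after depletion of ribosomal RNA, in stranded libraries, and A/J had the lowest contrast sensitivity of its strains, a measure taken in other mice. Whether the counting of reads used the strand is not stated.

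Rods and cones turn light into a change of membrane voltage through an opsin, the G protein transducin, a phosphodiesterase and a channel gated by cyclic GMP, and they pass the signal to bipolar cells at ribbon synapses. ON bipolar cells read it through a glutamate receptor coupled to a G protein, and amacrine, horizontal and ganglion cells, Müller glia, microglia, vessels and the neighbouring pigment epithelium add their own RNA to a whole retina. A/J is an albino strain, as is NOD/ShiLtJ, and carries further well-known alleles that are described with the genes concerned.

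Depth was even across the strains. The A/J libraries held 76170000, 61600000 and 63030000 reads, and the others 59250000 to 77985000. A value of 3 reads corresponded to 0.0385 to 0.0506 cpm (counts per 1000000 reads of the library), and levels under that are at the limit of detection. A value of 0.0001 cpm is a gene without a read plus the constant that the authors added. Cpm are not divided by transcript length, so levels are compared between libraries and never between genes.

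The retinal identity of the A/J libraries was clear in its markers. Gnat1, of the rod cascade, was at 1697, 1761 and 1783 cpm in A/J and at 1749.6 to 2598 (median 2011) in the others. Lens RNA stood out in 3 libraries of other strains. The 16 lens genes include the crystallin Cryaa. They summed to 1931 cpm in 129S1/Svlmj replicate 2 (TA011), 269 cpm in C57BL/6J replicate 2 (TA014) and 2318 cpm in NOD/ShiLtJ replicate 2 (TA017). The sums were 7.83 to 64.6 cpm in the 9 other libraries outside A/J. In A/J these genes summed to 19.2, 14.9 and 10.9 cpm. The 15 lens genes tested were each lower in A/J in the estimate, with a median difference of -1.41, and none was called. Cryaa was at 6.04, 4.05 and 3.04 cpm in A/J and at 1.81 to 755 (median 9.05) in the others (-2.004, q = 0.144), and Cryba1, another crystallin, at 3.28, 2.40 and 2.53 cpm against 1.41 to 516 (median 6.92) (-2.07, q = 0.124). Without the 3 libraries with lens RNA Cryba1 was called lower at -0.72, and all 60 named genes set apart in A/J were also set apart. Leaving out other libraries cannot bring the rest closer to A/J, so only the call could be lost there.

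Sex-linked genes also separated libraries. Xist, which is transcribed from the inactive X, was at 962 cpm in 129S1/Svlmj replicate 3 (TA012) and 906 cpm in C57BL/6J replicate 3 (TA015), and at 0.472, 0.259 and 0.269 cpm in A/J. The Y-linked Ddx3y was at 28.6, 28.4 and 29.1 cpm in A/J and at 0.0001 and 0.118 cpm in the libraries with high Xist. Eif2s3y read 39.96, 39.1 and 39.5 cpm in A/J, and Uty read 34.8, 36.6 and 38.8 cpm. Kdm5d, a histone demethylase on Y, read 32.5, 10.3 and 33.3 cpm, so that A/J replicate 2 was low for this gene and not for the other 3 on Y. In all 3 A/J libraries Y-linked genes were transcribed and Xist was low. Genes on X and Y were left out of the test.

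Of the 28802 genes in the table, 992 lay on X or Y, and 15811 of the rest had a mean of at least 0.5 cpm over the 15 libraries and were tested. The difference is that of the log2 of cpm plus 1 between the A/J mean and the mean of the 4 other strain means, given as estimate ± standard error with 3 A/J against 12 other libraries, and a gene is called at a Storey q under 0.01 in limma. In A/J 1618 genes (10.2%) were called higher and 1515 (9.58%) lower, while the median difference of all genes tested was 0.0029. A mean of 4 strains can be moved by 1 of them, so a stricter group was kept. A gene is set apart where it is called and all 3 A/J libraries lie above, or all below, the 12 others. There were 539 genes (3.41%) set apart higher and 511 (3.23%) lower. By at least 1 on the log2 scale, 33 genes (0.209%) were set apart higher and 29 (0.183%) lower. These shares over all genes tested are the background for the counts of each list below.

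**Figure D1:**
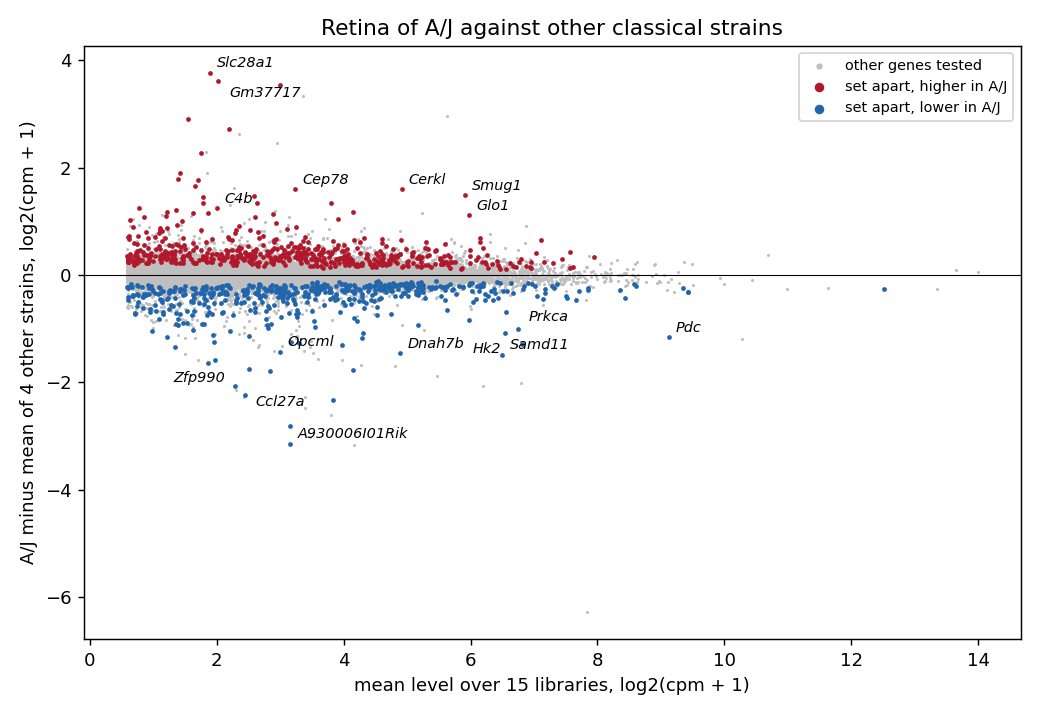
Each point is 1 of the 15811 genes tested, with its mean level over the 15 libraries on the horizontal axis and the A/J difference from the mean of the 4 other strains on the vertical axis, both in log2(cpm + 1). Red points are the 539 genes set apart higher in A/J and blue points the 511 set apart lower, with Slc28a1 at 3.77 and A930006I01Rik at -3.15 among the farthest from 0.

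Against single strains, A/J had 1789 genes called higher and 1522 lower than 129S1/Svlmj, 1360 and 1370 than C57BL/6J, 823 and 1074 than NOD/ShiLtJ, and 1613 and 1277 than NZO/HlLtJ. These 4 comparisons share the A/J libraries. Among the 1050 genes set apart, the strain whose mean was nearest to A/J was NOD/ShiLtJ for 405, C57BL/6J for 234, NZO/HlLtJ for 220 and 129S1/Svlmj for 191. For 403 of the 1050 genes (38.4%), 254 higher and 149 lower, the 9 wild-derived libraries, which the rule did not use, also lay beyond the A/J libraries on the same side as the other classical strains. For some set apart genes named below the wild-derived libraries overlapped A/J or lay beyond it, namely Acaa1a, Btbd9, Cnga1, Crxos, Dnah7b, Dnah8, Flt1, Gad2, Gm23444, Gm25360, Hlf, Hmga1, Ifit2, Krt18, Nefl, Osmr, Otor, Pde6b, Pde6g, Pfkl, Rdh1, Rdh16f1, Tapbp, Tek and Tuba1c. Of the genes named that were called and not set apart, some had another strain whose mean was at or beyond that of A/J in the direction of the call. That strain was NOD/ShiLtJ for Arntl, Atf3, Bhlhe41, Cabp5, Gstm5, Impg2, Ndrg1, Nnt, Pcp2, Pde6a, Pde6h, Rorb, Rsph3a and Sag, NZO/HlLtJ for Calb1, Drd2, Hba-a2, Hspa8, Impg2 and Serpina3n, C57BL/6J for Cdhr1, Grik1, Guca1b, H2-K1, Oasl2, Serpina3n and Slc18a2, and 129S1/Svlmj for Eno1, Gstm5 and H2-K1. The study treats every library as a biological replicate, and so does the fit used here. Each standard error and q rests on the spread between libraries within a strain. The spread between the 4 other strains does not enter that error. With no strain term, where it does enter, 434 genes were called in place of 3133. When each strain counted as 1 value, only Slc28a1 was called. In that fit 955 of the 15811 genes tested had an unadjusted p under 0.05 in limma, a threshold that a share of 0.05 passes with no difference at all. That count is therefore no support for differences at the level of strains. Leaving out A/J replicate 1 lowered the number of genes called from 3133 to 2017, and leaving out replicate 2 lowered it to 1796.

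Several photoreceptor genes were lower in A/J, and the farthest from the other strains were Pdc and Samd11. Pdc (chr1:150319417-150333907), which encodes phosducin, the photoreceptor protein that binds the beta and gamma subunits of transducin, was at 269, 265 and 280.5 cpm in A/J and at 375 to 833 (median 629.5) in the 12 others, a difference of -1.16 ± 0.057 (q = 1.66e-10). The A/J mean was 0.434 of the mean of the other strains. Samd11 (chr4:156246966-156255658), a nuclear protein of photoreceptors with a sterile alpha motif, read 36.7, 34.5 and 34.9 cpm against 67.4 to 133 (median 106), a difference of -1.48 ± 0.055 (q = 3.04e-12) and 0.342 of the others' mean. Both genes were tight within A/J and spread among the other strains, with NOD/ShiLtJ lowest of them for Pdc at a mean of 405 cpm and NZO/HlLtJ lowest for Samd11 at 74.2 cpm. No library of another classical strain reached into the A/J range. The wild-derived libraries were at 510.5 to 737 cpm for Pdc and 123 to 214 cpm for Samd11, also above A/J. Exons of other genes cover 28.5% of the exon bases of Samd11, 16.7% by Noc2l on the opposite strand, and Noc2l itself was not called (0.094, q = 0.142). Crxos, a homeobox gene that neighbours the photoreceptor factor Crx, was also set apart lower, at 1.08, 0.874 and 0.932 cpm against 2.01 to 4.22 (median 3.48), a difference of -1.13 ± 0.064 (q = 1.02e-09), whereas Crx had -0.033 (q = 0.241) and was not called.

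Of the 10 rod phototransduction genes, all tested, 7 were called lower (2 after quantile normalization) and none higher, with 4 set apart lower and a median difference of -0.22. Pde6b, the beta catalytic subunit of the rod phosphodiesterase, read 569, 553 and 577 cpm against 589 to 738 (median 669), a difference of -0.24 ± 0.041 (q = 1.93e-04). Pde6g, its inhibitory subunit, read 267, 282 and 287 cpm against 305 to 371 (median 337), a difference of -0.28 ± 0.048 (q = 2.13e-04). Both genes were below every library of the other classical strains in A/J, by margins that are small beside those of Pdc and Samd11. Cnga1, the alpha subunit of the rod channel, was at 213, 192 and 197 cpm against 214 to 262 (median 239), a difference of -0.24 ± 0.040 (q = 1.97e-04), and its highest A/J library lay just under the lowest of the others. Gnat1, the rod transducin alpha subunit, differed by -0.25 (q = 5.89e-04), Gnb1, the beta subunit, by -0.17 (q = 0.00675), and Pde6a, the alpha catalytic subunit, by -0.14 (q = 0.00432), and their A/J libraries overlapped the others. The calls depended on the scaling. After quantile normalization 2 of the 10 were called lower and none higher, 1 was set apart lower, and the difference of Pde6b was -0.0099. After median-ratio scaling 7 were called lower. In a whole retina, fewer cells of a type and less RNA per cell cannot be told apart.

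The cone list gave a mixed picture. Of its 10 genes 8 were tested, since Opn1mw and Arr3 lie on X, and 3 were called lower, 1 of them set apart, and 1 higher, with a median of -0.15. Cngb3, the beta subunit of the cone channel, was at 9.70, 10.5 and 10.2 cpm in A/J and at 10.8 to 12.9 (median 12.1) in the others, a difference of -0.20 ± 0.040 (q = 7.06e-04). It was set apart by a narrow gap, which median-ratio scaling closed while the gene remained called at -0.20. Pde6h, the inhibitory subunit of the cone phosphodiesterase, had the largest difference in the list at -0.57 (q = 2.26e-07), with A/J at 13.7 to 14.3 cpm inside the range of the others. Opn1sw, the short-wavelength opsin, was the member called higher, at 0.26 (q = 0.00203), and it was not called without A/J replicate 2 or 3. In the 10 genes of photoresponse recovery, 9 tested with Gucy2f on X, 4 were called lower and 2 higher, with a median of -0.070. Gnb5, the beta subunit that pairs with the RGS9 protein in turning transducin off, was set apart lower at 101, 99.6 and 105 cpm against 105 to 127 (median 116), a difference of -0.20 ± 0.032 (q = 1.55e-04). Sag, the rod arrestin, was called higher at 0.37 (q = 3.03e-05) and Guca1b, an activator of guanylate cyclase, at 0.29 (q = 4.45e-05), both within the range of the other strains. Grk1, Rcvrn and Rgs9bp were called lower at -0.18, -0.20 and -0.26. In the recovery list 1 gene was called lower without A/J replicate 2, and 2 genes without replicate 3.

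The promoters of photoreceptor genes set apart lower are shown because the lower photoreceptor values above belong to these genes. RefSeq windows on GRCm38.p6, of 250 bases before to 50 after the gene start in that annotation, were searched for TAATCC and its reverse complement GGATTA, the core letters of sites bound by homeodomain proteins of the Crx type. The letters occur in 7.06% of the 32851 windows in the table, and in at least 1 window of 8.14% of its 27025 genes. Of Pde6b, Pde6g, Cnga1, Cngb3, Gnb5, Pdc and Samd11, each set apart lower, 5 have a window and 3 hold the letters, namely Cnga1, Gnb5 and Samd11. These genes were picked for their role in photoreceptors and are few, so the 3 of 5 is not read as an excess. Crxos, also set apart lower, has 3 windows and no match. The table covers 10297 of the 15811 genes tested, under 80%, so the share over the genes set apart is void and is not given. The stretches printed here end at the base before the RefSeq start, which for Samd11 lies inside the interval of the gene given above, and for this gene the 25 bases that overlap one of its annotated exons are left off, while its last 10 bases lie in an exon of Gm47252 on the other strand. Capitals mark the letters searched.
Samd11 (chr4:156255343-156255567, minus strand): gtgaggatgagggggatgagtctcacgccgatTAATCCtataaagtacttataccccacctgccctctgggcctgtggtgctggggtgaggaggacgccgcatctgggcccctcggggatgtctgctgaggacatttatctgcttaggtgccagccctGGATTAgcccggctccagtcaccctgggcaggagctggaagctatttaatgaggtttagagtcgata
Gnb5 (chr9:75306038-75306287, plus strand): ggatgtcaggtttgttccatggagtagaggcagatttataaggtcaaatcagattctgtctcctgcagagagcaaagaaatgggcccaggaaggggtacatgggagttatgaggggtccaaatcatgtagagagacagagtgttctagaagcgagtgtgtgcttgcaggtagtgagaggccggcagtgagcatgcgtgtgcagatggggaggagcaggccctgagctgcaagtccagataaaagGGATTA
Pdc (chr1:150319167-150319416, plus strand): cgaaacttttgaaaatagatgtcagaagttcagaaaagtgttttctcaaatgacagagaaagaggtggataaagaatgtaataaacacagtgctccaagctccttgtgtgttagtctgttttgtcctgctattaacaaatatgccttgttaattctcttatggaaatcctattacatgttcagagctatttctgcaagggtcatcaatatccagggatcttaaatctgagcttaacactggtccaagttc
The window of Pdc has no match, and a match is a description of letters only. The sequences are those of the C57BL/6J reference, to which the reads of all strains were aligned, and no A/J genome was used here, so a difference in RNA level and a difference in how well reads align cannot be told apart.

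**Figure D2:**
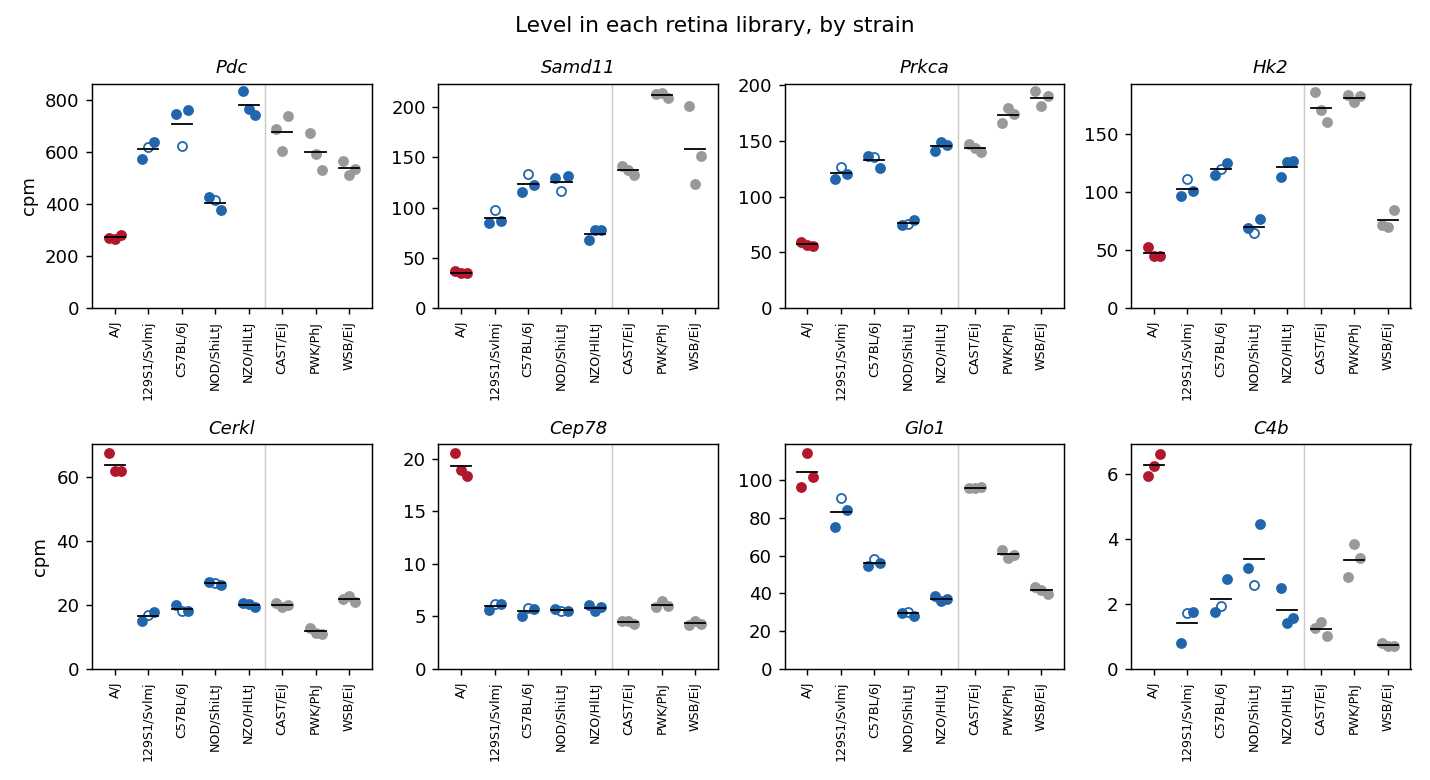
Level in cpm of Pdc, Samd11, Prkca, Hk2, Cerkl, Cep78, Glo1 and C4b in each of the 24 libraries, with A/J in red, the other classical strains in blue and the wild-derived strains in grey. Open circles are the 3 libraries with lens RNA and bars are strain means of 3 libraries. In each panel the A/J libraries lie outside the 12 blue points, as for Pdc at 265 to 280.5 cpm against a lowest other value of 375 cpm.

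Outer segment genes differed little. Of 13 genes of the outer segment and the visual cycle 11 were tested, with 2 on X, and 3 were called lower and none higher, none of them set apart, with a median of -0.10. The direction turned with the scaling, since after quantile normalization 3 were called higher and 2 lower. Cdhr1, a cadherin at the base of the outer segment, was at 211, 208 and 212 cpm against 189 to 333 (median 252), a difference of -0.23 ± 0.047 (q = 9.52e-04). C57BL/6J was lower than A/J for this gene, at a mean of 193 cpm, and without NOD/ShiLtJ the call was lost at -0.11. Rdh8, a retinol dehydrogenase of the outer segment, read 21.7, 21.1 and 22.3 cpm against 21.2 to 31.99 (median 23.99), a difference of -0.19 ± 0.056 (q = 0.00913), close to the threshold, and its estimate ran from -0.21 to -0.17 without single libraries. The call was lost without any 1 of the A/J or NZO/HlLtJ libraries, 129S1/Svlmj replicate 2 or 3, or NOD/ShiLtJ replicate 1 or 3. Impg2, a proteoglycan of the matrix around photoreceptors, was the third member called lower at -0.11 (q = 0.00409), with only 129S1/Svlmj well above A/J, at a mean of 273 cpm against 181 cpm. In the fits without A/J replicate 1, without replicate 2 and without the 2 libraries with high Xist, 1 gene of the list was called lower.

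A pair of genes known from human retinal disease stood far above the other strains. Cerkl (chr2:79330543-79456786), the ceramide kinase-like gene mutated in forms of retinitis pigmentosa, was at 67.2, 61.9 and 61.6 cpm in A/J and at 15.1 to 27.3 (median 19.7) in the others, a difference of 1.61 ± 0.046 (q = 1.43e-13). Its A/J mean was 3.10 times that of the other strains, and the wild-derived libraries were at 10.9 to 22.7 cpm. Exons of other genes cover 25.1% of its exon bases, 21.3% by Itga4 on the opposite strand, and Itga4 was not called, with means of 5.21 cpm in A/J and 5.27 cpm in the others. Cep78 (chr19:15955773-15984990), a centrosomal protein mutated in cone-rod dystrophy with hearing loss, read 20.6, 18.9 and 18.4 cpm against 5.02 to 6.16 (median 5.69), a difference of 1.60 ± 0.051 (q = 4.97e-13) and 3.38 times the others' mean. The 4 other strains were nearly level for Cep78, with means from 5.49 to 5.96 cpm, and the wild-derived libraries lay at 4.18 to 6.43 cpm. Neither gene had a library outside A/J within its A/J range.

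Rod bipolar cells are marked by protein kinase C alpha, and its gene Prkca (chr11:107933387-108343929) was among the clearest differences of a cell type marker. Prkca was at 59.7, 56.3 and 55.96 cpm in A/J and at 74.2 to 149 (median 126) in the others, a difference of -0.998 ± 0.037 (q = 3.13e-12), with the A/J mean at 0.483 of the others' mean. All A/J libraries were under the lowest of the 12, which came from NOD/ShiLtJ with a mean of 76.2 cpm, and the wild-derived libraries were at 140.5 to 194 cpm. The other bipolar markers did not share that size. Of 12 markers, all tested, 3 were called lower and 2 higher, with a median of 0.029. Cabp5, a calcium-binding protein of bipolar cells, was called higher at 0.42 (q = 3.85e-06), and Grik1 and Scgn, markers of cone bipolar cells, lower at -0.12 (q = 0.00797) and -0.21 (q = 0.00157). The members called lower were 1 without A/J replicate 2, and those called higher 1 without replicate 1.

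In the complex around the glutamate receptor mGluR6 of ON bipolar cells, 10 of 11 genes were tested, with Nyx on X, and 3 were called higher, 1 of them set apart, and none lower, with a median of 0.14. Gnao1, the G protein alpha subunit that couples the receptor to its channel, was at 54.98, 56.4 and 51.1 cpm in A/J and at 30.2 to 49.2 (median 38.6) in the others, a difference of 0.45 ± 0.072 (q = 1.20e-04). Its A/J libraries were above all others, and narrowly above the wild-derived ones at 37.8 to 51.1 cpm. Gpr179, an orphan receptor that anchors the complex, was called higher at 0.36 (q = 0.00321), and Pcp2, a modulator of that G protein, at 0.36 (q = 6.94e-06), both overlapping the other strains. Grm6 and Trpm1, the receptor and the channel, were not called, at 0.17 (q = 0.0483) and 0.063 (q = 0.106). At the photoreceptor ribbon synapse, 13 of 14 genes were tested, with Cacna1f on X, and 1 was called in each direction, with a median of -0.0026. Stx3, the syntaxin of ribbon synapses, was lower at 167, 165 and 175 cpm against 164 to 294 (median 253), a difference of -0.47 ± 0.033 (q = 1.26e-08). NOD/ShiLtJ was at a mean of 169 cpm, level with A/J, and the other 3 strains were higher. Bsn, the scaffold protein bassoon, was higher at 30.1, 25.6 and 19.2 cpm against 14.5 to 23.8 (median 17.04), a difference of 0.45 ± 0.12 (q = 0.00550), and spread widely within A/J. It was not called without A/J replicate 1 (0.31) or replicate 2 (0.42).

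Inner retinal markers were called in numbers near those of genes in general, since 10.2% of all genes tested were called higher and 9.58% lower. Of 15 amacrine markers, all tested, 2 were called higher and 1 lower, with a median of 0.035. Gad2, the GABA-synthesizing enzyme, was set apart higher at 19.8, 19.8 and 17.6 cpm against 12.4 to 15.5 (median 13.3), a difference of 0.46 ± 0.044 (q = 6.04e-07), while Gad1, the other form of the enzyme, had 0.040 (q = 0.225) and was not called. Slc17a8, a vesicular glutamate transporter of a small amacrine class, was lower at -0.68 (q = 1.07e-04), and Dab1, an adaptor of the reelin pathway, higher at 0.20 (q = 0.00141). Of 15 ganglion cell markers, all tested, 3 were called lower and none higher, with a median of -0.039. All 3 encode neurofilaments, the intermediate filaments of long axons. Nefl was set apart at 108, 101 and 106 cpm against 115 to 174 (median 134), a difference of -0.38 ± 0.041 (q = 1.95e-06), and Nefm and Nefh were lower at -0.44 (q = 0.00567) and -0.28 (q = 0.00121). Nefm exons on the opposite strand are annotated over 32.8% of the exon bases of Nefl. Rbpms, Pou4f1, Pou4f2, Thy1 and Slc17a6, which mark ganglion cells more closely, were not called, at 0.17, -0.017, 0.085, 0.048 and -0.10. Only 1 ganglion cell marker was called lower without A/J replicate 2 or without replicate 3, and 1 amacrine marker higher without replicate 2.

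Horizontal cell markers numbered 7, of which 6 were tested because Lhx1 was under the minimum, and 1 was called lower, with a median of -0.016. Calb1, the calcium-binding protein calbindin, was at 15.1, 15.1 and 16.5 cpm against 14.2 to 21.8 (median 19.3), a difference of -0.24 ± 0.045 (q = 4.30e-04), and A/J lay next to NZO/HlLtJ, whose mean was 15.1 cpm. Gja10, a connexin of horizontal cells, had the next largest difference and was not called, at 0.760, 0.907 and 0.522 cpm against 0.527 to 1.43 (median 0.905) (-0.15, q = 0.0480). Dopamine, released by a rare amacrine cell, is made and handled by 10 listed genes, of which Ddc, Slc6a3 and Gch1 were under the minimum and Maoa lies on X. Of the 6 tested, 2 were called lower and 1 higher, with a median of 0.0067. Slc18a2, the vesicular monoamine transporter, was lower at 1.38, 1.31 and 1.52 cpm against 1.25 to 3.43 (median 2.20), a difference of -0.40 ± 0.063 (q = 9.26e-05), with C57BL/6J beside A/J at a mean of 1.37 cpm. Drd4, a dopamine receptor of photoreceptors, read 31.7, 33.3 and 33.4 cpm against 19.9 to 34.5 (median 27.8) and was not called (0.25, q = 0.0363). Drd1 was called lower at -0.15 (q = 0.00342) and Drd2 higher at 0.23 (q = 0.00142), and Th, the rate-limiting enzyme, was not called (-0.075, q = 0.182). Without A/J replicate 1 or 2, 1 member was called lower, and Drd2 was not called without replicate 2 or 3.

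Among genes known to rise when photoreceptors are damaged, more were called higher than lower. Of 17 such genes 13 were tested, with Edn2, Lif, Bcl3 and Chac1 under the minimum, and 5 were called higher, 3 of them set apart, and 1 lower, with a median of 0.21 and 10 of 13 estimates above 0. With no minimum 8 were called higher, 5 of them set apart, and none lower. Below the minimum, Edn2, endothelin 2, read 1.11, 1.07 and 1.25 cpm against 0.0145 to 0.307 (median 0.177), and Bcl3, a regulator of NF-kappa-B, 0.118, 0.162 and 0.190 cpm against 0.0132 to 0.102 (median 0.0430). Both were above all 12 other libraries, were picked out after their values were seen, and were not tested singly. Osmr, the oncostatin M receptor, was at 4.19, 4.37 and 5.08 cpm against 2.67 to 4.12 (median 3.25), a difference of 0.39 ± 0.069 (q = 2.74e-04). Stat3, the transcription factor downstream of such receptors, read 19.6, 18.8 and 19.3 cpm against 13.6 to 18.4 (median 15.3), a difference of 0.28 ± 0.054 (q = 6.03e-04). Cebpd, a transcription factor of acute responses, read 2.20, 1.85 and 2.17 cpm against 0.849 to 1.83 (median 1.47), a difference of 0.38 ± 0.065 (q = 2.17e-04). These 3 genes were above all 12 other libraries, with small gaps. Gfap, the glial filament that Müller cells make under stress, was called higher at 1.20 (q = 0.00172), with A/J at 10.9 to 14.98 cpm and the others at 1.81 to 12.4 cpm. Atf3, a stress-induced factor, was the fifth at 0.44 (q = 3.12e-05), though NOD/ShiLtJ exceeded A/J, with means of 3.88 and 2.32 cpm. Serpina3n, a protease inhibitor induced in glia, was called lower at -0.38 (q = 0.00456), and not without A/J replicate 1 or 2. Its A/J mean of 1.21 cpm was under those of 129S1/Svlmj (6.41 cpm) and NOD/ShiLtJ (2.47 cpm) and above those of C57BL/6J (0.957 cpm) and NZO/HlLtJ (0.379 cpm). Fgf2 and Ednrb were not called, at -0.22 and 0.24. Nupr1, a stress-induced nuclear protein, had the lowest estimate of the list and was not called (-1.10, q = 0.0848). Without the 3 libraries with lens RNA 6 members were called higher and 3 lower.

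Müller glia markers were 13, all tested, of which 3 were called higher and 1 lower, none set apart, with a median of 0.050. Kcnj10, the potassium channel of Müller cells, was at 16.1, 15.5 and 13.5 cpm against 5.81 to 16.002 (median 12.7), a difference of 0.44 ± 0.064 (q = 4.83e-05). Low values in C57BL/6J, with a mean of 6.22 cpm, entered that estimate, and without the strain the gene was not called (0.21). Sox9, a transcription factor of glia, read 2.10, 2.57 and 2.23 cpm against 1.20 to 2.65 (median 1.42), a difference of 0.37 ± 0.090 (q = 0.00299), and was not called without A/J replicate 2 (0.31) or replicate 3 (0.39). Aqp4, the water channel, was called higher at 0.19 (q = 0.00436), and Glul, glutamine synthetase, lower at -0.24 (q = 6.79e-04). Rlbp1, Slc1a3, Vim and Apoe were not called. The markers called higher were 1 without A/J replicate 2 or 3 and 5 without 129S1/Svlmj replicate 2. No marker of this list was called lower without A/J replicate 1.

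The genes of microglia and complement that were called were all higher in A/J. Of 14 genes of microglia and complement 9 were tested, with Aif1, Tmem119, Trem2, Tyrobp and Cd68 under the minimum, and 5 were called higher and none lower, 3 of them set apart, with a median of 0.27 and all 9 estimates above 0. C4b (chr17:34728380-34743883), complement component C4, was at 5.95, 6.25 and 6.62 cpm against 0.791 to 4.47 (median 1.85), a difference of 1.24 ± 0.15 (q = 4.82e-06) and 2.86 times the others' mean. The wild-derived libraries were at 0.696 to 3.84 cpm, also below A/J. Of the 31-base words in C4b exons 48.3% also occur in its neighbour C4a, which had means of 0.927 cpm in A/J and 1.04 cpm in the others and was not called. Cx3cr1, the fractalkine receptor of microglia, read 1.86, 1.64 and 1.66 cpm against 0.715 to 1.39 (median 1.09), a difference of 0.39 ± 0.059 (q = 7.52e-05). P2ry12 and Csf1r, receptors of resting microglia, were called higher at 0.35 (q = 8.73e-04) and 0.35 (q = 6.16e-04). C1qa, C1qb, C1qc and C3 were not called, at 0.18, 0.21, 0.17 and 0.12.

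Genes of MHC class I and peptide loading were 16, of which 9 were tested, with H2-T23, H2-Q6, H2-Q7, H2-M3, Psmb8, Psmb9 and Nlrc5 under the minimum, and 4 were called higher and 2 lower, with a median of 0.11. Tapbp, the tapasin that loads peptides, was set apart higher at 13.8, 14.7 and 14.7 cpm against 7.93 to 11.96 (median 10.1), a difference of 0.48 ± 0.060 (q = 9.18e-06), and Gm19412 on the opposite strand covers 24.9% of its exon bases. H2-K1, H2-Q4 and Tap2 were called higher at 0.25, 0.25 and 0.31, and H2-D1 and H2-T22 lower at -0.53 and -0.50, all overlapping other strains. Class I genes are known to differ in sequence between strains. The members called higher were 1 without A/J replicate 1 and 2 without replicate 2, and 1 was called lower without C57BL/6J replicate 2 or 3. Interferon-responsive genes were 18, 13 of them tested, with Ifit1, Isg15, Bst2, Rtp4 and Usp18 under the minimum, and 2 were called higher and 3 lower, with a median of 0.0031. Ifit2, an antiviral protein, was set apart lower at 4.02, 3.45 and 3.61 cpm against 4.02 to 5.79 (median 4.61), a difference of -0.29 ± 0.055 (q = 4.30e-04), and its highest A/J library almost met the lowest of the others. Ifit3 was lower at -0.91 (q = 1.77e-06) and Xaf1 at -0.22 (q = 0.00210), whereas Stat2 and Oasl2 were higher at 0.28 (q = 7.78e-04) and 0.35 (q = 3.58e-04). In this list 1 gene was called higher without A/J replicate 1.

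Photoreceptors run glycolysis at a high rate, and RNA of Hk2, which encodes a hexokinase, was lower in A/J retina. Hk2 (chr6:82725025-82774455), hexokinase 2, was at 52.4, 45.2 and 45.2 cpm in A/J and at 64.99 to 126 (median 112) in the others, a difference of -1.08 ± 0.057 (q = 4.40e-10), with the A/J mean at 0.459 of the others' mean. As for Prkca and Pdc, NOD/ShiLtJ was the nearest strain, at a mean of 70.3 cpm, and the wild-derived libraries were at 70.1 to 186 cpm. Hk1, the other hexokinase listed, had 0.18 (q = 0.0156) and was not called. Of 18 genes of hypoxia and glycolysis 16 were tested, with Egln3 under the minimum and Pgk1 on X, and 5 were called lower, 2 of them set apart, and 1 higher, with a median of -0.10. Pfkl, the liver form of phosphofructokinase, was set apart lower at 55.6, 53.2 and 51.2 cpm against 56.3 to 81.5 (median 66.02), a difference of -0.31 ± 0.078 (q = 0.00419). It was not called without A/J replicate 1 (-0.34), replicate 2 (-0.30) or replicate 3 (-0.28). Ldha, lactate dehydrogenase A, Eno1, an enolase, and Ankrd37, a hypoxia target, were lower at -0.30 (q = 1.05e-04), -0.30 (q = 0.00160) and -0.25 (q = 0.00593). Ndrg1, another hypoxia target, was higher at 0.20 (q = 0.00608) and was not called when any 1 of the A/J libraries was left out. Vegfa and Hif1a were not called, at -0.11 and -0.061. With A/J replicate 1, 2 or 3 left out, 3 genes of the list were called lower each time. The number set apart lower was 1 without A/J replicate 2 and 4 without 129S1/Svlmj replicate 3.

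Respiratory chain subunits were nearly level. Of 20 subunits of complexes I to V 19 were tested, with Ndufa1 on X, and 1 was called lower and none higher. The median was -0.048 and 16 estimates were below 0. In the fits without 1 library, 1 to 4 subunits were called lower. Sdhb, the iron-sulfur subunit of complex II, was at 8.62, 8.76 and 9.10 cpm against 8.92 to 12.6 (median 11.4), a difference of -0.30 ± 0.046 (q = 8.47e-05), with C57BL/6J next to A/J at a mean of 9.25 cpm. The mitochondrial gene mt-Cytb read 451, 519 and 511 cpm against 488 to 758 (median 616) and was not called (-0.31, q = 0.0184), though without the 3 libraries with lens RNA it was called at -0.36 and 5 members of the list were called lower. Of 16 genes of cholesterol synthesis 15 were tested, with Nsdhl on X, none was called, and the median was -0.015. Among its larger estimates was that of Insig1 at 24.2, 23.1 and 24.7 cpm against 22.1 to 34.6 (median 27.2) (-0.20, q = 0.0157). Insig1, which retains the sterol sensor in the endoplasmic reticulum, was called lower after median-ratio scaling (-0.20) and quantile normalization (-0.21). Among 13 heat shock and unfolded protein genes, 12 tested with Hspb1 under the minimum, 1 was called in each direction, with a median of 0.022. Hspa8, the constitutive chaperone, was at 66.9, 74.4 and 77.8 cpm against 65.5 to 204 (median 78.8), a difference of -0.38 ± 0.052 (q = 2.66e-05) in which C57BL/6J stood apart with a mean of 191 cpm, and without that strain the gene was not called (-0.043). Hsp90aa1, the inducible HSP90, was higher at 411, 349.7 and 345 cpm against 265 to 347 (median 306), a difference of 0.28 ± 0.053 (q = 4.68e-04), and shares 46.7% of its words with Gm12346, which was set apart higher (0.34, q = 1.01e-04).

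Among 18 genes of glutathione and detoxification 17 were tested, with Gstm2 under the minimum, and 3 were called higher and none lower, with a median of 0.031. Glo1 (chr17:30584936-30626872), glyoxalase 1, which clears methylglyoxal, was at 96.7, 115 and 102 cpm in A/J and at 28.3 to 90.8 (median 46.7) in the others, a difference of 1.11 ± 0.053 (q = 1.05e-10) and 2.02 times the others' mean. Within the other strains it fell into separate levels, from a mean of 29.4 cpm in NOD/ShiLtJ to 83.4 cpm in 129S1/Svlmj, and the wild-derived libraries were at 39.7 to 96.6 cpm. The glutathione transferases Gsta4 and Gstm5 were called higher at 0.24 (q = 0.00983) and 0.31 (q = 0.00965), close to the threshold, and 1 member of the list was called higher without A/J replicate 2 or 3. The same number was called higher without 129S1/Svlmj replicate 1 or 3, C57BL/6J replicate 1, NOD/ShiLtJ replicate 1, 2 or 3, or NZO/HlLtJ replicate 2 or 3, and 2 members were called lower without 129S1/Svlmj replicate 1. A/J is among the strains known to carry a duplication on chromosome 17 that includes Glo1. In the window from 30000001 to 31000000 on that chromosome 7 genes were tested, and 4 were set apart, all higher. Dnah8, a dynein heavy chain, was at 3.07, 3.27 and 2.88 cpm against 0.404 to 2.53 (median 0.907), a difference of 0.94 ± 0.072 (q = 4.03e-08). Btbd9, whose human counterpart is linked to restless legs syndrome, read 61.1, 61.7 and 57.7 cpm against 39.01 to 56.3 (median 44.3), a difference of 0.37 ± 0.043 (q = 4.32e-06), with 129S1/Svlmj next below A/J at a mean of 55.4 cpm. The fourth was the predicted gene Gm10503 at 2.73, named after its values were seen. The number of gene copies in these mice was not measured.

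Other genes have alleles known in these strains. The list holds 13 genes, of which 8 were tested, and 5 were called higher and none lower, with a median of 0.47. Glo1, Btbd9 and Dnah8, described above from the same window, are among the 5, so these calls are not separate observations. The other 5, Dysf, Hc, Naip5, Glp1r and Il3ra, were under the minimum and were compared with an exact permutation test, two-sided, over the 455 splits of 15 libraries into 3 and 12. These splits take no account of the strains from which the 12 libraries came. Dysf, which carries a retrotransposon insertion in A/J that causes muscular dystrophy, read 0.0918, 0.113 and 0.0634 cpm in A/J against 0.381 to 0.717 (median 0.557), with means of 0.0896 ± 0.0251 cpm (SD, n = 3) in A/J and 0.541 ± 0.106 cpm (SD, n = 12) in the others. All 3 A/J libraries were below the others, and the p of 0.0022 is the smallest the splits allow (0.011 after Benjamini-Hochberg adjustment over 5 genes). Glp1r, the glucagon-like peptide 1 receptor, lies near Glo1 and was at 0.379 ± 0.0821 cpm (SD, n = 3) in A/J and 0.159 ± 0.126 cpm (SD, n = 12) in the others, with p = 0.022 in the exact test and an adjusted p of 0.0549. Hc, complement C5, which A/J lacks, was at or under the limit of detection in both groups, and Naip5, of the inflammasome that senses Legionella, and Il3ra, the interleukin 3 receptor, had exact p-values of 0.248 and 0.653. Nnt, the mitochondrial transhydrogenase that is truncated in C57BL/6J, was called higher at 6.92, 7.56 and 7.63 cpm against 3.22 to 7.74 (median 4.42), a difference of 0.56 ± 0.056 (q = 8.24e-07), with NOD/ShiLtJ level with A/J. Gabra2, a GABA receptor subunit lowered by a C57BL/6J allele, was at 14.02, 11.5 and 10.6 cpm against 7.30 to 16.9 (median 12.3), with C57BL/6J at a mean of 7.79 cpm, and A/J was not called (0.016, q = 0.426). Cdh23, the cadherin of hearing loss in several inbred strains, was at 0.852, 0.745 and 0.760 cpm against 0.384 to 1.30 (median 0.819) (-0.031, q = 0.397).

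Pigment genes belong to this group as well, since Tyr carries the albino allele in A/J and NOD/ShiLtJ and Tyrp1 the brown allele in A/J. Tyr, tyrosinase, was at 1.23, 1.42 and 0.886 cpm against 0.408 to 1.88 (median 1.11), not called (0.054, q = 0.391). Tyrp1, which acts later in melanin synthesis, was at 7.99, 10.9 and 5.98 cpm against 1.36 to 9.96 (median 3.17), a difference of 1.04 ± 0.27 (q = 0.00448). Its values overlapped those of the other strains, and it was not called without A/J replicate 1 (1.05) or replicate 2 (0.85). Of 15 genes of pigment epithelium and melanin 11 were tested, with Best1, Mlana, Slc45a2 and Oca2 under the minimum, and 2 were called higher and none lower, with a median of 0.41 and all 11 estimates above 0. Rgr, a retinal G protein-coupled receptor of pigment epithelium, was at 7.65, 20.9 and 38.4 cpm against 4.60 to 16.7 (median 6.87), a difference of 1.04 ± 0.30 (q = 0.00822). It was lowest in A/J replicate 1 and highest in replicate 3, and leaving out A/J replicate 2 (0.96) or replicate 3 (0.53) ended its call. So did leaving out 129S1/Svlmj replicate 1 or 3, NOD/ShiLtJ replicate 1 or 2, or NZO/HlLtJ replicate 1 or 3, with estimates of 1.003 to 1.05. Without the 3 libraries with lens RNA Rgr was not called (0.94), and 1 member of the list was called higher. The sum of the 15 genes was 48.97, 83.2 and 100.2 cpm in the A/J libraries and 22.1 to 76.3 cpm in the others. Without A/J replicate 1, 4 members were called higher. The number was 0 without replicate 2 or without both libraries with high Xist, and without A/J replicate 3, 129S1/Svlmj replicate 1 or 3, NOD/ShiLtJ replicate 2, or NZO/HlLtJ replicate 1 or 3 it was 1. The part of pigment epithelium in other results was not tested.

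**Figure D3:**
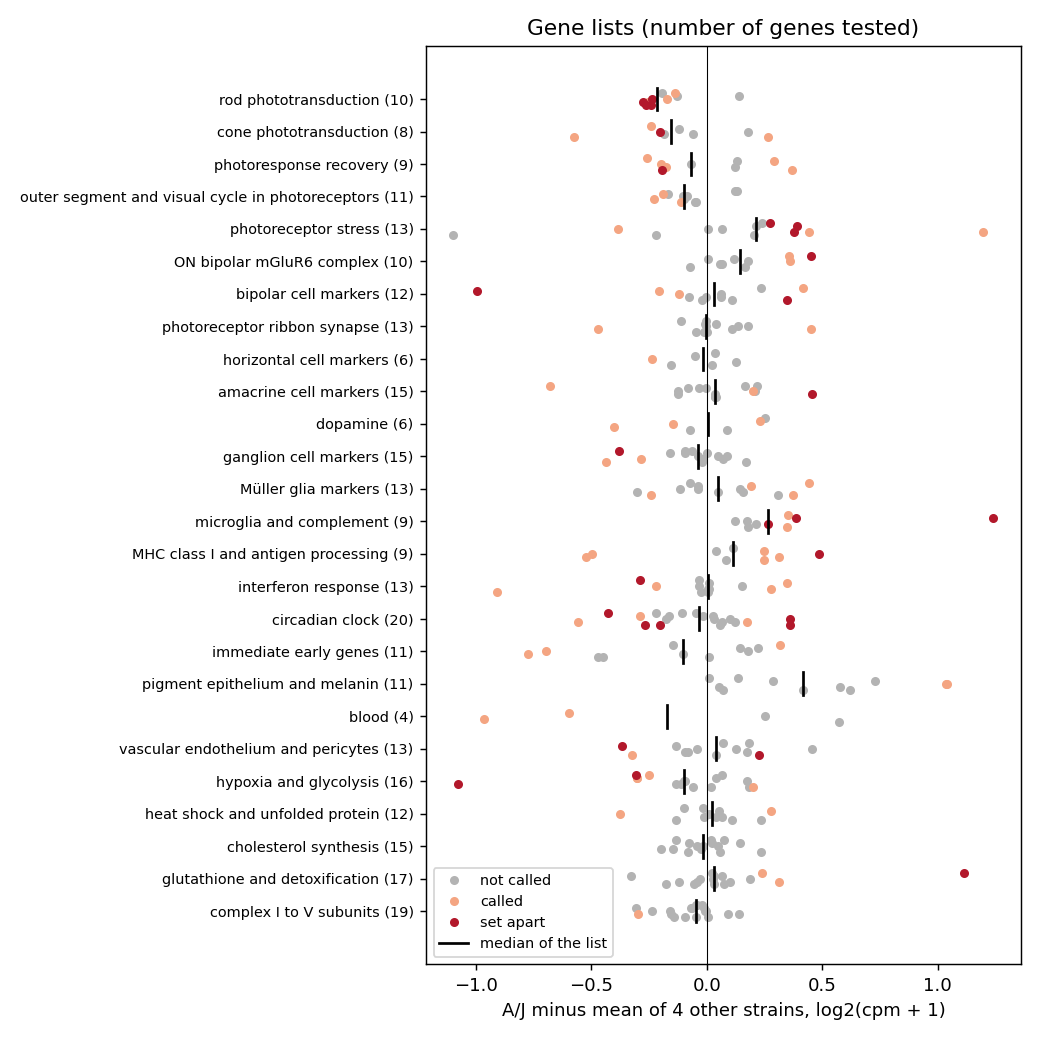
Difference between A/J and the mean of the 4 other strains, in log2(cpm + 1), for each gene of the lists named on the vertical axis, with the number of genes tested in parentheses. Grey points were not called, light red points were called, dark red points were set apart, and black bars are list medians. The lists of lens genes and of known alleles are not drawn. The medians of those drawn run from -0.22 for rods to 0.41 for pigment epithelium, with -0.15 for cones and 0.27 for microglia and complement.

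Other counts in the lists also moved by over 1.5 times. Without the 3 libraries with lens RNA, 2 cone, 2 ribbon synapse and 2 immediate early genes were called higher in place of 1 each, as were 3 genes of hypoxia and glycolysis in place of 1, and 1 gene each of blood and cholesterol synthesis in place of none. In that fit 3 lens genes and 1 gene of glutathione and detoxification were called lower in place of none. Quantile normalization gave 2 genes called higher at the ribbon synapse and 2 in hypoxia and glycolysis in place of 1 each, none called lower among Müller glia markers in place of 1, 2 called lower in cholesterol synthesis and 1 in glutathione and detoxification in place of none, and 2 respiratory subunits called lower in place of 1. With median-ratio scaling 2 genes of hypoxia and glycolysis were called higher and 2 respiratory subunits lower, in place of 1 each, and 1 gene of cholesterol synthesis lower in place of none. Without the 2 libraries with high Xist no ribbon synapse or immediate early gene was called higher in place of 1 each, 1 blood gene was called higher in place of none, 1 gene of glutathione and detoxification was called higher in place of 3, and 1 MHC gene was called lower in place of 2. With no minimum, 4 rod genes in place of 7, 2 genes of photoresponse recovery in place of 4 and 3 of hypoxia and glycolysis in place of 5 were called lower, 1 gene of glutathione and detoxification was called higher in place of 3, and no ribbon synapse, immediate early or hypoxia gene was called higher in place of 1 each. In that fit no pigment gene was called higher in place of 2, and 1 pigment gene and 1 gene with known alleles were called lower in place of none.

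Clock genes moved in both directions. Of 20 genes of the core clock and its output, all tested, 3 were called higher, 2 of them set apart, and 5 lower, 3 of them set apart, with a median of -0.032. Npas2, a partner of Bmal1, was at 1.26, 0.874 and 0.965 cpm against 0.368 to 0.768 (median 0.590), a difference of 0.36 ± 0.067 (q = 3.77e-04). Hlf, an output factor of the PAR family, read 45.3, 43.9 and 40.9 cpm against 29.5 to 38.2 (median 33.4), a difference of 0.36 ± 0.065 (q = 3.19e-04). Both were above all libraries of the other classical strains. Per3, a period protein, was at 45.6, 43.99 and 42.01 cpm against 47.8 to 62.3 (median 51.5), a difference of -0.27 ± 0.046 (q = 1.91e-04). Rora, a nuclear receptor that activates Bmal1, read 137, 137 and 140.3 cpm against 147 to 169 (median 161), a difference of -0.20 ± 0.034 (q = 1.69e-04). Ciart, a repressor of the clock, read 1.73, 1.76 and 1.60 cpm against 2.13 to 3.57 (median 2.46), a difference of -0.43 ± 0.048 (q = 2.79e-06). The last 3 lay below all other libraries. Rorb, a nuclear receptor needed for rod development, was lower at -0.56 (q = 4.53e-06) and Bhlhe41 at -0.29 (q = 1.98e-05), both at levels shared with NOD/ShiLtJ, whose Rorb mean was 94.05 cpm against 98.5 cpm in A/J, while Arntl, which encodes Bmal1, was higher at 0.17 (q = 0.00253). Clock, Cry1, Cry2, Per1, Per2, Nr1d1 and Dbp were not called. The hour at which retinas were taken is not in the labels.

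Activity-dependent genes were uneven. Of 17 immediate early genes 11 were tested, with Egr2, Egr3, Egr4, Fosb, Arc and Nr4a3 under the minimum, and 2 were called lower and 1 higher, with a median of -0.11. Fos was at 2.41, 2.96 and 4.75 cpm against 3.03 to 11.7 (median 7.24), a difference of -0.77 ± 0.18 (q = 0.00209), and Nr4a1, an orphan receptor, at 1.78, 1.86 and 2.64 cpm against 1.98 to 6.01 (median 4.61), a difference of -0.70 ± 0.14 (q = 9.50e-04). For both, A/J overlapped the others and lay next to NZO/HlLtJ, and the call was lost without A/J replicate 1 (-0.61 and -0.63) or replicate 2 (-0.72 and -0.65). Junb was called higher at 0.32 (q = 0.00471), and not without A/J replicate 2 or 3.

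Vessel genes were 13, all tested, with 1 called higher and 2 lower and a median of 0.040. Tek, the angiopoietin receptor, was set apart lower at 2.02, 1.94 and 2.29 cpm against 2.49 to 3.58 (median 2.94), a difference of -0.37 ± 0.058 (q = 9.74e-05). Flt1, a receptor of vascular endothelial growth factor, was set apart higher at 29.1, 29.6 and 27.5 cpm against 20.9 to 27.2 (median 24.3), a difference of 0.23 ± 0.055 (q = 0.00282), and was not called without A/J replicate 1 (0.22) or replicate 2 (0.21). Rgs5, a pericyte marker, was lower at -0.32 (q = 1.73e-04), and Cldn5, Pecam1, Cdh5 and Kdr were not called. Without the 3 libraries with lens RNA 3 vessel genes were called higher and 2 lower. Blood genes were 8, of which Cd3e was not in the table and Alas2, Ptprc and Cd79a were not tested. Of the 4 haemoglobin genes tested 2 were called lower, with a median of -0.17. Hba-a2 was at 0.806, 0.518 and 0.209 cpm against 0.306 to 5.63 (median 1.44), a difference of -0.97 ± 0.18 (q = 3.36e-04), and Hbb-bt at 0.642, 0.394 and 0.407 cpm against 0.365 to 2.43 (median 1.36), a difference of -0.60 ± 0.12 (q = 6.84e-04). Hba-a1 and Hbb-bs, the other copies, were not called, at 0.57 (q = 0.0184) and 0.25 (q = 0.219). Hba-a2 shares 92.6% of its 31-base words with Hba-a1 and Hbb-bt 59.4% with Hbb-bs, so the split between copies is uncertain. The sum of the blood genes was 25.4, 21.97 and 22.3 cpm in A/J and 8.05 to 31.02 cpm in the others.

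Most of the genes farthest from the other strains were in none of the lists. Slc28a1 (chr7:81114799-81170417), a concentrative nucleoside transporter, was at 16.5, 15.98 and 7.96 cpm in A/J and at 0.0001 to 0.0395 cpm in the 12 others, at or under the limit of detection in each of them. The difference was 3.77 ± 0.13 (q = 1.64e-12), and no fold is given against values at that limit. A/J replicate 3 was lower than the other A/J libraries, and the wild-derived libraries held 0.0001 to 0.0419 cpm. Smug1 (chr15:103153290-103167093), a uracil-DNA glycosylase of base excision repair, was at 129, 119 and 120.1 cpm against 37.2 to 53.4 (median 43.8), a difference of 1.49 ± 0.055 (q = 3.13e-12) and 2.84 times the others' mean. Piezo1, a mechanically gated channel, was at 3.68, 3.90 and 3.47 cpm against 0.766 to 1.36 (median 0.984), a difference of 1.22 ± 0.077 (q = 3.90e-09). Exons of Ctu2 on the opposite strand cover 24.6% of its exon bases, and Ctu2 was also called higher (0.23, q = 0.00789). Otor, the secreted protein otoraplin, read 6.12, 5.46 and 5.41 cpm against 1.09 to 2.73 (median 1.53), a difference of 1.35 ± 0.063 (q = 7.43e-11), and the wild-derived libraries at 0.302 to 10.01 cpm were above A/J in PWK/PhJ and level with it in WSB/EiJ. Sox30, a transcription factor known from the testis, read 5.69, 5.33 and 5.33 cpm against 0.224 to 3.65 (median 1.40), a difference of 1.45 ± 0.060 (q = 1.49e-11), with 129S1/Svlmj and NOD/ShiLtJ well above the other 2 strains. Tmem26, a membrane protein, read 5.14, 5.15 and 5.28 cpm against 0.776 to 4.4996 (median 1.44), a difference of 1.16 ± 0.057 (q = 1.35e-10), with NOD/ShiLtJ close below A/J at a mean of 4.22 cpm. Each of these genes was above all 12 other libraries in all 3 of A/J.

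Some of the genes set apart higher have close copies. Rdh1 and Rdh16f1, retinol dehydrogenases on chromosome 10, were higher together. Rdh1 was at 5.45, 4.31 and 4.67 cpm against 0.143 to 2.45 (median 0.400), a difference of 1.79 ± 0.064 (q = 2.03e-12), and the wild-derived libraries were at 0.958 to 5.47 cpm. Rdh16f1 was at 2.60, 2.08 and 1.68 cpm against 0.00134 to 1.36 (median 0.199), a difference of 1.25 ± 0.10 (q = 5.05e-08), and each of its 31-base words occurs in another gene, 89.3% of them in Rdh9. NOD/ShiLtJ was the next strain for both. Tuba1c, an alpha-tubulin, was at 5.70, 5.81 and 5.85 cpm against 0.313 to 4.68 (median 0.482), a difference of 1.77 ± 0.064 (q = 2.38e-12). For this gene 129S1/Svlmj was close below A/J at a mean of 4.28 cpm, the other 3 strains had means of 0.382 to 0.501 cpm, and 48.98% of its words occur in Tuba1b, which was not called (-0.047, q = 0.227). The wild-derived libraries were at 0.145 to 8.39 cpm of Tuba1c, with CAST/EiJ above A/J.

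On the lower side, Opcml (chr9:27790775-28925411), an adhesion protein of the IgLON family on neurons, was at 2.53, 2.39 and 2.25 cpm in A/J and at 7.25 to 8.88 (median 8.18) in the others, a difference of -1.43 ± 0.048 (q = 8.85e-13) and 0.293 of the others' mean. The 4 other strains were nearly level, with means of 7.70 to 8.56 cpm, and the wild-derived libraries were at 7.10 to 9.71 cpm. Diaph3, a formin that nucleates actin, read 3.71, 3.43 and 3.50 cpm against 6.75 to 13.8 (median 10.5), a difference of -1.26 ± 0.052 (q = 1.38e-11). Krt18, a simple-epithelium keratin, read 5.52, 5.76 and 7.01 cpm against 9.71 to 22.1 (median 18.5), a difference of -1.30 ± 0.073 (q = 8.72e-10). Both were clear of the 12 others, Diaph3 with NOD/ShiLtJ nearest and Krt18 with C57BL/6J nearest, but the wild-derived libraries had 2.65 to 7.14 cpm of Krt18, about level with A/J or below. Acaa1a, a thiolase of peroxisomal fat oxidation, read 10.1, 9.29 and 8.79 cpm against 18.3 to 23.9 (median 21.2), a difference of -1.08 ± 0.069 (q = 4.71e-09). The other classical strains were level, while PWK/PhJ and WSB/EiJ were as low as A/J, with the wild-derived libraries at 7.80 to 19.6 cpm in all. Ccl27a, a chemokine, read 0.271, 0.369 and 0.387 cpm against 3.73 to 7.38 (median 5.85), a difference of -2.24 ± 0.088 (q = 7.44e-12). Zfp990, a zinc finger protein, read 0.0525, 0.0972 and 0.137 cpm against 0.144 to 8.91 (median 5.34), a difference of -2.07 ± 0.057 (q = 7.34e-14). C57BL/6J was almost as low as A/J for Zfp990, at a mean of 0.160 cpm. Of the words of Ccl27a 56.96% occur in other genes, and of those of Zfp990 49.4%.

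For 3 genes set apart lower a close copy moved as well. Hmga1, an architectural protein of chromatin, was at 1.54, 1.18 and 1.11 cpm against 2.47 to 10.004 (median 8.58), a difference of -1.79 ± 0.079 (q = 3.30e-11), with the wild-derived libraries at the level of A/J (1.04 to 1.70 cpm), while its single-exon copy Hmga1b was set apart higher at 13.98 cpm in A/J against strain means of 6.20 to 9.35 cpm. The sum of both was 15.3 cpm in A/J and 12.2 to 15.6 cpm in the others, so the total in A/J was within the range of the other strains. Rsph3b, a radial spoke protein of cilia, was at 2.002, 1.52 and 1.85 cpm against 2.73 to 8.18 (median 5.31), a difference of -1.14 ± 0.080 (q = 1.28e-08), and its copy Rsph3a, with 58.5% of its words, was called higher (0.47, q = 8.56e-06). Dnah7b, an axonemal dynein heavy chain, was at 11.3, 10.6 and 10.8 cpm against 22.02 to 44.6 (median 32.9), a difference of -1.46 ± 0.036 (q = 1.61e-14). Its copy Dnah7c was lower too (-0.82, q = 1.31e-08), and the sum of both was 11.5 cpm in A/J against 23.6 to 45.3 cpm in the others, so here the total was lower.

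Among other transcripts, predicted genes and noncoding RNAs had the largest differences. Gm37717 and Gm38073, single-exon transcripts on chromosome 1, were at 14.95, 13.3 and 14.7 cpm and 9.004, 8.18 and 8.45 cpm in A/J, against 0.0918 to 0.591 (median 0.192) and 0.0320 to 0.801 (median 0.187) in the others, differences of 3.63 ± 0.058 (q = 1.27e-16) and 2.91 ± 0.064 (q = 4.09e-15). A930006I01Rik on chromosome 2 was nearly silent in A/J, at 0.197, 0.243 and 0.190 cpm against 7.71 to 13.5 (median 9.34), a difference of -3.15 ± 0.050 (q = 1.27e-16). All 12 other libraries were far from A/J for these 3. Gm17167 on chromosome 4 was at 0.0525, 0.0001 and 0.0159 cpm against 0.0799 to 22.2 (median 9.79), a difference of -2.81 ± 0.075 (q = 4.93e-14), with 129S1/Svlmj almost as low, and 72.5% of its words occur elsewhere. By annotated type, 4 of 22 small nuclear RNAs (18.2%), 2 of 10 miscellaneous RNAs, 6 of 37 transcribed unprocessed pseudogenes (16.2%), 7 of 46 other unprocessed pseudogenes (15.2%) and 0 of 33 small nucleolar RNAs were set apart, beside 6.74% of the 12504 protein-coding genes, 7.77% of the 965 long noncoding RNAs, 5.62% of the 1263 genes of the annotation class TEC and 4.25% of the 823 processed pseudogenes, with no test of these shares. The small nuclear RNA Gm23444 was at 20.1, 24.2 and 29.5 cpm against 0.0283 to 10.7 (median 0.414), a difference of 3.54 ± 0.10 (q = 1.66e-13), and all its words occur in Gm23472. Gm25360 had no read in A/J against 0.794 to 67.2 (median 1.30), a difference of -2.34 ± 0.069 (q = 1.66e-13), with 129S1/Svlmj at a mean of 63.02 cpm far above the rest. Of the words of Gm25360 61.5% occur in other genes, and 50.9% occur in Gm23444.

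Genes set apart were found on every autosome, from 5.19% of the genes tested on chromosome 6 to 9.27% on chromosome 4. In windows of 1000000 bases the largest number was 16 of 62 genes tested, all higher, from 37000001 to 38000000 on chromosome 18, which holds the clustered protocadherins, adhesion proteins that give neurons individual surface identities. The longest run of neighbouring tested genes set apart, 6 from Pcdhb16 to Pcdhb21 (37477814 to 37518326), lies there. Of 21 genes of the beta subcluster tested 11 were called higher and none lower, 7 of them set apart, with a median of 0.19 and 20 estimates above 0. Of 22 genes of the gamma subcluster 11 were called higher and 2 lower, 9 of them set apart higher, with a median of 0.22. Of 12 alpha genes 1, Pcdha7, was called and set apart lower, with a median of -0.062. Beta genes have a single exon each, and the 7 set apart share 5.94% to 17.8% of their words with other genes, whereas the gamma genes share constant exons, so their reads are divided by the authors' model and their single values are uncertain. The next largest number was 6, in 2 windows on chromosome 1 (of 12 and 16 genes tested) and 1 on chromosome 3 (of 10), in both directions in each. By share of the genes tested, several windows with fewer genes ranked above that of the protocadherins.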

How the data were processed

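Total RNA of mouse retina was sequenced in 24 libraries, and 15 of 5 classical strains were compared. The authors trimmed reads in Partek Flow, used STAR for alignment on GRCm38/mm10, and counted reads per gene by Partek's E/M method. The labels give no versions. The paper names RefSeq, while the table has biotypes of an Ensembl-type annotation. The deposited values are cpm, which the authors made by dividing by the total read count and adding 0.0001. Low values stood within 0.05 of whole numbers of reads for 89.0% to 90.9%, so no test for counts was used. The reads per library were read from the size of 1 read, and counting error is the only error that the limit of 3 reads covers.

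Values were transformed to log2 of cpm plus 1. Genes on X and Y and genes with a mean under 0.5 cpm over the 15 libraries were left out. A mean per strain was fitted with limma 3.58.1 in R 4.3.3 (lmFit, contrasts, eBayes with trend), and A/J was compared with the mean of the 4 other strain means, two-sided, at a Storey q under 0.01. Alternatives were another pseudocount, other minimums, median-ratio scaling, quantile normalization, other thresholds, strain means, no strain term, X and Y included, and leaving out each library, each strain and the 3 libraries with lens RNA. Leaving out the 2 libraries with high Xist was added after the data were seen. The fit was tested on simulated data with known shifts in A/J. It recovered 95 of 100 shifts of 0.5 and 100 of 100 shifts of 1 on the log2 scale, with 2 false calls. The simulated strains otherwise shared the same mean for each gene. The simulation therefore does not show how calls behave where the other strains differ, as they do here. Shared words are stretches of 31 bases of annotated exons found in another gene.

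The members and lists were chosen with earlier results of these data known. The genes named are the 12 protein-coding genes with the largest differences in each direction among those set apart, leaving out predicted models, the 3 largest in each direction among all others set apart, the genes with known alleles, the members of each other list that were set apart or else its 2 largest differences, and Xist and Y-linked genes. Other members of lists, neighbours and copies of genes were named after their values were seen. No list was tested as a set. Some genes counted in the lists are not reported here.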

Additional observations from a re-analysis of the deposited data

Results flagged for a closer look

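Genes on X lay outside the comparison and are described here. Of the 526 genes on X tested in a fit with X and Y included, 40 (7.60%) were set apart in A/J, beside 6.67% of all 16344 genes in that fit, and 0 of 7 genes on Y were. By direction, 31 of the genes on X (5.89%) were lower and 9 (1.71%) higher, beside 3.32% lower and 3.35% higher over all genes in the fit, with no test of these shares. These genes were named after their values were seen. Cldn34c1, of the claudin family, was at 0.0001 to 0.0325 cpm in A/J against 2.87 to 6.59 cpm in the others (-2.34 ± 0.068, q = 2.24e-13). Mtm1, the myotubularin phosphatase, was at 12.9 to 14.2 cpm in A/J against 8.20 to 11.003 cpm in the others (0.49 ± 0.051, q = 1.36e-06). Maoa, monoamine oxidase A, which breaks down dopamine and serotonin, was at 3.42 to 3.74 cpm in A/J against 3.93 to 5.49 cpm in the others (-0.27 ± 0.060, q = 0.00189). Of the 15 libraries 2, both outside A/J, had high Xist, and the part of this in the 40 genes was not tested.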

How the results depend on the processing

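The 3 counts of genes called, set apart, and set apart by at least 1 on the log2 scale were 3133, 1050 and 62. With a minimum mean of 5 cpm they were 2031, 674 and 28, over 8981 genes tested in place of 15811. At a q under 0.05, 5404 genes were called, a looser threshold by construction. With strain means as units, which leaves 5 values, the counts were 1, 1 and 1, and with no strain term 434, 420 and 39. A pseudocount of 0.1 gave 125 genes set apart by at least 1, since it stretches low values. Without NOD/ShiLtJ, 1746 genes were set apart, beside 1360 without 129S1/Svlmj, 1440 without C57BL/6J and 1266 without NZO/HlLtJ. Each of these fits has fewer libraries to lie clear of. Without single libraries the counts ran from 1796 to 3464 called, from 907 to 1261 set apart and from 62 to 73 set apart by at least 1, and the lowest number called was without A/J replicate 2 (1796), then replicate 1 (2017). In all other alternatives the counts stayed within 1.5 times. Of the 1050 genes set apart 716 (68.2%) were set apart in each of the 15 fits without 1 library, and 61 of the 62. Without the 3 libraries with lens RNA, 1040 of the 1050 were set apart. In all these fits a gene could lose only its call, since leaving libraries out cannot make the groups overlap. Of 88 genes named and tested 78 were called, none changed direction while called, 61 were called in every alternative other than strain means and no strain term that tested them, and 36 were called with no strain term. The cause of the moves that construction does not show was not tested. Depth limits statements on genes under 0.0506 cpm.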

Other observations

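Some of the widest differences were shared by A/J with 1 other strain and so were not set apart. They were named after their values were seen. Rpl26, a ribosomal protein gene, had a mean of 1.002 cpm in A/J and 1.09 cpm in NZO/HlLtJ, against 15.8 cpm in 129S1/Svlmj, 14.9 cpm in C57BL/6J and 14.8 cpm in NOD/ShiLtJ. Spc25, a kinetochore protein of dividing cells, had 0.393 cpm in A/J and 0.299 cpm in NZO/HlLtJ, against 14.6, 33.7 and 35.2 cpm in 129S1/Svlmj, C57BL/6J and NOD/ShiLtJ. The small nuclear RNA Gm22513 had 0.193 cpm in A/J and 0.466 cpm in NOD/ShiLtJ, against 410.5, 369 and 356 cpm in 129S1/Svlmj, C57BL/6J and NZO/HlLtJ. In the other direction Catspere1, of the sperm calcium channel complex, had 7.05 cpm in A/J and 5.82 cpm in NZO/HlLtJ, and was under the limit of detection in the other 3 strains. For Rpl26 and Spc25 low RNA and reads that align elsewhere cannot be told apart.

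The comparison has 1 strain on one side, so strain and anything that differs with it between these libraries cannot be told apart. Sex and hour of collection are not in the labels. Bulk RNA does not say which cells a transcript came from, and no protein was measured. Reads were aligned to the C57BL/6J genome, and how many reads of A/J alleles were lost was not tested, while the counting model divides reads between copies. The 3 A/J libraries set the spread of the group, and the number of genes called fell when any 1 of them was left out.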
